A study of Mus musculus with 31 samples.

Results

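The subject of these results is the chromatin of the clustered histone genes in mouse regulatory T cells (Tregs), the T cells that restrain immune responses and depend on interleukin-2 (IL-2). A peak of the deposited accessibility table was taken when its gene annotation held a symbol beginning with Hist1h, Hist2h, Hist3h or Hist4h. The rule found 126 peaks of 104979 in all (0.120%), and these merged into 71 separate regions. They name 66 histone genes, of which 18 are of the H2A type, 18 H2B, 13 H4, 12 H3 and 5 of the linker histone H1. Among them Hist1h2aj of the H2A type and Hist3h2bb-ps of the H2B type are pseudogenes. GENCODE M21 lists 70 genes with such symbols. The 4 with no peak were Hist1h1t, Hist1h2aa and Hist1h2ba, which encode testis-specific variants, and Hist1h2al, a pseudogene. On GRCm38 the Hist1 genes held 70 peaks on chromosome 13 between 21715934 and 23763933, and the Hist2 genes held 52 peaks on chromosome 3 between 96219329 and 96269941. Hist3 genes on chromosome 11 and the Hist4 gene on chromosome 6 held 2 peaks each.

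Accessibility was read by ATAC-seq, in which a transposase cuts and tags open DNA, in Tregs sorted from spleen. Every library came from RFP-FoxP3+ mice of the C57BL/6 strain, which carry a red reporter of the Treg factor Foxp3, and every mouse had been injected. The injection was 5 µg of mIL-2 (mouse IL-2, here IL2), 20 µg of mIL-2/CD25 (a fusion of IL-2 with its receptor chain CD25, here FP) or 100 µL of PBS. At 0.75 h and at 16 h after injection there were 3 IL2, 3 FP and 3 PBS libraries each. At 72 h there were 3 FP and 3 PBS libraries, and at 168 h there were 4 FP and 3 PBS libraries, which made 31 libraries. The labels do not say whether libraries of a group came from separate animals, nor give their age or sex, so each p measures the spread between these samples.

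The library totals ran from 7.39 to 59.6 M counts (M for mega). At 168 h FP library 2 and PBS libraries 1 and 2 were the shallowest, with 12.3, 7.39 and 13.4 M counts. Peaks were present at all 7 genes of the Treg and T cell marker list (Foxp3, Il2ra, Ctla4, Ikzf2, Cd3e, Cd4 and Cd28), whose summed promoter level was 71.0 to 146 CPM (counts per M counts of the library). The NK cell list had peaks at 3 of 4 genes (5.31 to 12.6 CPM, none at Ncr1). The myeloid list had peaks at 5 of 7 (49.1 to 134 CPM, none at Csf1r and Csf3r) and the CD8 T cell list at 2 of 2 (40.5 to 123 CPM). These sums grow with the number of promoter peaks, which was 12, 4, 13 and 16 in the order given. All 16 CD8 T cell promoter peaks were of Cd8b1, and 10 of the myeloid ones were of Cebpa. The median promoter level was 12.2, 4.36, 8.69 and 9.93 CPM per kb in the same order.

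Clustered histone genes supply the histone proteins that package newly copied DNA. Their transcription rises as cells enter S phase, under the coactivator NPAT at nuclear sites called histone locus bodies, and their mRNAs end in a stem-loop in place of a poly(A) tail. Many H2A and H2B genes lie head to head and share the DNA between their starts. T cells that are driven to divide by IL-2 need this supply, and the comparisons below ask whether the chromatin of these genes opened or closed after either form of IL-2.

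Shown first is the DNA in front of the genes with the most abundant promoter peak of each type, by CPM not corrected for width. Per kb, other H3 and H4 promoters lay higher. The promoters of the types carry different short elements. The sequences were read from GRCm38.p6, with gene starts from RefSeq, and run 5′ to 3′ towards the gene named. Capitals mark CCAAT, in either orientation, the core of the site of the factor NF-Y, and GGTCCG, part of the H4 site of the factor HINFP. For Hist1h1c (chr13:23738607-23738806, plus strand), Hist1h3e (chr13:23562386-23562585, minus strand) and Hist4h4 (chr6:136804432-136804631, minus strand) the last 200 bases before the start are given.
Hist1h1c: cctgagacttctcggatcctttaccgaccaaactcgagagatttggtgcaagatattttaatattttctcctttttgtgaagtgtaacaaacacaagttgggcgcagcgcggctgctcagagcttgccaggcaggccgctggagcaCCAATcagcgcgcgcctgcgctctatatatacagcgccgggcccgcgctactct
Hist1h3e: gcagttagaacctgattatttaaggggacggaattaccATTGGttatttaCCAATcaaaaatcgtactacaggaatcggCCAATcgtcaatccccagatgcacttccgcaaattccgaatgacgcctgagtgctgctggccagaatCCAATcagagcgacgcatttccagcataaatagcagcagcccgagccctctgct
Hist4h4: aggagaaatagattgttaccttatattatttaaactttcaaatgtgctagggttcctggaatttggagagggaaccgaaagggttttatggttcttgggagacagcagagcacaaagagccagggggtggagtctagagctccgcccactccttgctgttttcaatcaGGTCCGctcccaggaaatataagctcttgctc

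Peaks that name both an H2A and an H2B gene numbered 13. In 8 of them the annotated starts of the 2 genes faced away from each other inside the peak, 163 to 248 bases apart (median 178). The DNA between the starts is given for Hist1h2ak and Hist1h2bn (chr13:21753913-21754075), the most abundant of these by CPM not corrected for width. It is also given for Hist1h2ah and Hist1h2bk (chr13:22035644-22035820). Both sequences are of the plus strand. Capitals mark CCAAT in either orientation and the octamer ATTTGCAT, which POU factors bind.
Hist1h2ak/Hist1h2bn: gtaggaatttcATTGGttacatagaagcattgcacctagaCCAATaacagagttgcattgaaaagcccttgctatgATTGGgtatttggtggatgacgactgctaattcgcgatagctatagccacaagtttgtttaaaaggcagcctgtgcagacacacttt
Hist1h2ah/Hist1h2bk: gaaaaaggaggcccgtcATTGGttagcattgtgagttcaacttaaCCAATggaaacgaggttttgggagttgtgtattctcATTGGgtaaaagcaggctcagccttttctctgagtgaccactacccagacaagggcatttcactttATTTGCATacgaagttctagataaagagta
CCAAT on either strand was present between the starts of all 8 pairs, and the octamer between those of 2 pairs.

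RefSeq promoter windows, 250 bases before to 50 after a start, were found for 58 of the 66 genes (59 windows). CCAAT on either strand was present in all 5 H1, 16 H2A, 16 H2B and 10 H3 windows and in 3 of 12 H4 windows, against 37.4% of 32851 promoters of all genes. GGTCCG had the reverse distribution, with 11 of 12 H4 windows and 2 of the other 47, against 8.25% of all promoters. The octamer was in 6 of 16 H2A and 6 of 16 H2B windows and in no H1, H3 or H4 window, against 1.74% of all promoters. TATAAA was in 55.9% of histone windows and 13.6% of all promoters, and TTTNNCGC, an E2F-type element, in 28.8% of histone windows and 5.17% of all promoters. TTCNNNGAA, the element of STAT factors such as STAT5 downstream of the IL-2 receptor, was in 2 histone windows (3.39%) and in 8.30% of all promoters. Each element was searched on both strands. The windows of head-to-head pairs overlap, so these counts are not independent, and a match is letters only and no evidence of binding.

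The histone promoters were among the more open promoters of these cells in every group. The median promoter-labelled region, each represented by its widest peak, had 22.5 CPM per kb (60 regions, mean over 31 libraries), against 11.5 CPM per kb for all 29422 promoter-labelled peaks and 6.82 CPM per kb for all peaks. Of the 60 histone promoter regions, 85% lay above the median of all promoters. Within the 10 groups the median histone promoter region had 18.8 to 25.7 CPM per kb, against 10.6 to 12.3 CPM per kb for all promoters, and was the higher in each group. No histone peak was at 0 counts in any library, and the lowest count was 1. Here and below, CPM values use library totals scaled by edgeR's TMM factors over all 31 libraries, and peaks are set side by side only per kb unless stated.

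The regions that name both an H2A and an H2B gene were the most open type with more than 1 region. These 13 had a median of 36.0 CPM per kb (19.1 to 43.7). H3 regions followed with 22.6 (13 regions, 7.14 to 33.7), and H1 with 19.5 (7 regions, 13.2 to 27.4). H4 regions had 18.1 CPM per kb (19 regions, 3.96 to 32.5), H2A regions without an H2B partner had 18.1 (5 regions, 8.44 to 22.7) and H2B regions without an H2A partner had 13.0 (12 regions, 2.95 to 25.3). The ranges of the types overlapped, and no test was made of the order.

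**Figure D1:**
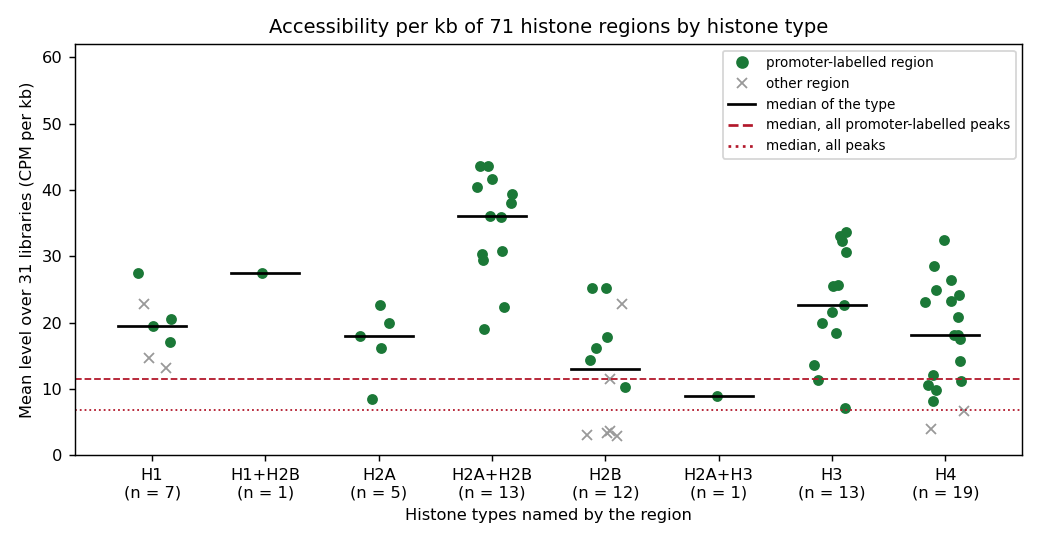
Accessibility per kb (vertical axis, mean over 31 libraries, CPM per kb) of the 71 histone regions by the histone types they name. Points are promoter-labelled regions and crosses other regions, each represented by its widest peak, black bars are medians and red lines are medians of all promoter-labelled peaks and of all peaks; the 13 regions naming H2A and H2B have the highest median, 36.0.

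By peak level, not corrected for width, the top region was the promoter of Hist1h1c, which encodes the H1.2 linker histone, with 42.0 CPM on average (lowest library 25.7, median 43.1, highest 60.9; chr13:23738680-23740211). The promoter of Hist1h2ak and Hist1h2bn followed with 39.6 CPM (18.9, 40.4 and 50.5) and that of Hist1h2bc and Hist1h2ac with 39.3 CPM (22.7, 39.5 and 54.6). The next 7 were at Hist1h2bg/Hist1h2ae, Hist1h2bq/Hist1h2ao, Hist1h2ap/Hist1h2br, Hist1h2an/Hist1h2bp, Hist1h2ag/Hist1h2bj, Hist1h2aj/Hist1h2bm and Hist1h2bb, with 29.3 to 33.9 CPM. The most abundant H3 promoter peak was at Hist1h3e (24.9 CPM; 15.5, 24.8 and 34.5) and the most abundant H4 promoter peak at Hist4h4 (21.7 CPM; 12.2, 22.8 and 28.5). Thus 9 of the 10 most abundant histone peaks were at H2A or H2B genes.

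Many of these genes are near copies, which limits what single peaks can say. Of the 71 regions, 26 held no stretch of 75 bases (the read length) that recurs elsewhere in the genome, and 11 were recurrent over more than 50% of their length. The regions of Hist1h2bq/Hist1h2ao and Hist1h2ap/Hist1h2br were recurrent throughout, so reads from them cannot be assigned to either copy, and their levels are uncertain. How reads that map to several places were counted is not given in the sources used here. In 3 regions the peak table holds many overlapping peaks, 13 in an exon of Hist1h1d, 23 at Hist2h2aa2/Hist2h3c2 and 22 at Hist2h2aa1/Hist2h3c1. These 58 peaks share reads, so counts of peaks weigh those places heavily, and medians are also given over the 71 regions.

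The summed level of the 71 regions, at each time, overlapped between the groups. It was 1010, 1075 and 1008 CPM in IL2 and 1124, 1077 and 849 CPM in FP libraries at 0.75 h, against 952, 1198 and 950 CPM in PBS libraries. At 16 h it was 1025, 1185 and 1337 CPM in IL2 and 1002, 1104 and 1089 CPM in FP libraries, against 947, 859 and 1059 CPM in PBS libraries. The lowest IL2 library of 16 h lay below the highest PBS library. At 72 h it was 778, 1029 and 1220 CPM in FP libraries, against 860, 726 and 1282 CPM in PBS libraries. At 168 h it was 1139, 671, 1125 and 1157 CPM in FP libraries, against 635, 747 and 1134 CPM in PBS libraries.

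Within the later times the sum moved with the library total. At 168 h the 3 libraries with 7.39, 12.3 and 13.4 M counts had 635, 671 and 747 CPM, and the 4 libraries with 32.8 to 37.7 M counts had 1125 to 1157 CPM, whether FP or PBS. At 72 h the library with the most counts, PBS library 3 with 59.6 M counts, had the highest sum (1282 CPM), and the one with the fewest, PBS library 2 with 20.0 M counts, had the lowest (726 CPM). At 0.75 h PBS library 2, with the fewest counts of that time (18.6 M), had the highest sum instead. The most abundant peak, on chromosome 1, held 22.3% of its counts. That share was 32.2% in FP library 3 of 0.75 h, which had the lowest sum (849 CPM). At 168 h the share was 30.0% to 31.6% in the 3 shallowest libraries and 14.98% to 20.0% in the other 4. At 16 h IL2 library c2 (30.4%, 1185 CPM) and PBS library c1 (23.3%, 947 CPM) went the other way. Whether the sum depends on this share was not tested. Medians with the library total added to the fit are given below where they moved.

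**Figure D2:**
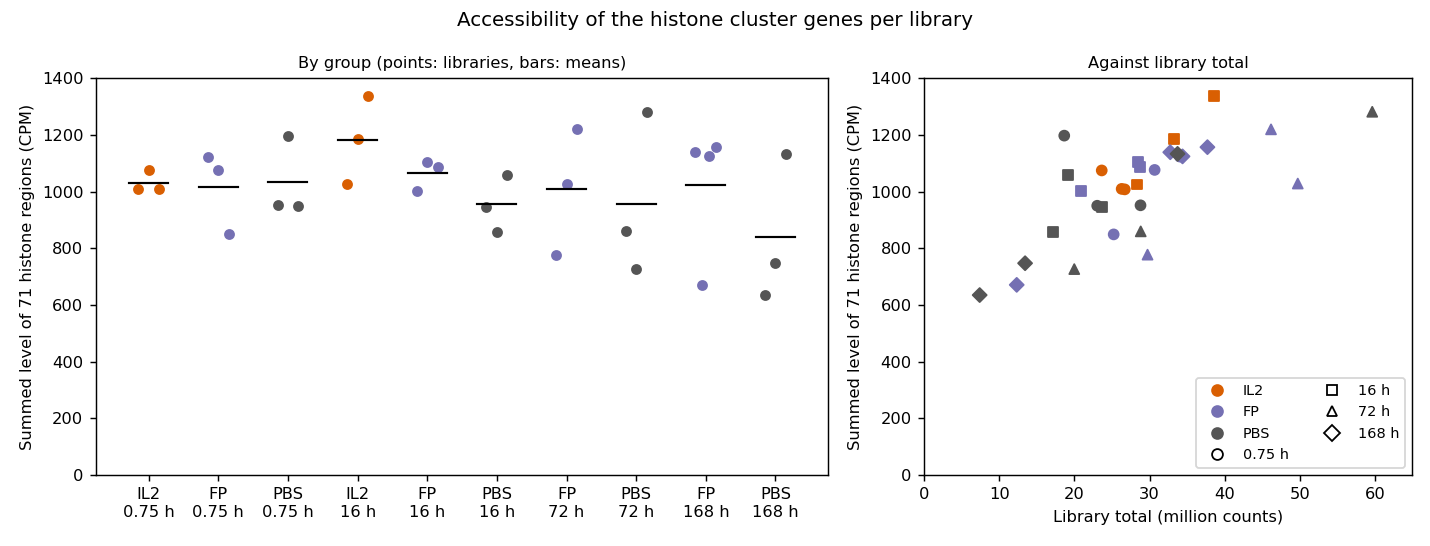
Summed level of the 71 histone regions in each library (vertical axes, CPM), by group on the left and against library total in M counts on the right. Points are libraries and bars are group means; the groups of each time overlap, and at 168 h the 3 libraries under 14 M counts lie at 635 to 747 CPM while the other 4 lie at 1125 to 1157 CPM.

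The first question was whether these genes changed 0.75 h after IL2. No histone peak passed the test: 0 of 126 were called at an adjusted p under 0.05, in a comparison where 499 of 100468 tested peaks (0.497%) were called (edgeR quasi-likelihood test on counts with Benjamini-Hochberg adjustment over all peaks, the rule of every call below; 3 IL2 and 3 PBS libraries). DESeq2 called 0 of 126 too. There were 2 histone peaks with an unadjusted p under 0.05, a share of 1.59% against 5.74% of all peaks. The IL2 and PBS libraries did not overlap at 5 of 126 peaks, against 11.4% of all peaks. The median log2 fold change of the 126 peaks was -0.05, and -0.01 over the 71 regions, against -0.03 for all promoter peaks. Leaving out 1 library at a time gave histone medians from -0.21 (without IL2 library 2) to 0.10 (without PBS library 2), so its sign rested on single libraries.

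The largest difference was at a small distal peak and not at a promoter. An intronic peak of Hist1h2be, an H2B gene, at chr13:23593018-23593737 and 7048 bases from the nearest start of the gene in GENCODE or RefSeq, had 4.40, 5.52 and 4.15 CPM in IL2 libraries, against 1.03, 2.72 and 0.199 CPM in PBS libraries. Each IL2 library lay above each PBS library. The log2 fold change was 1.83 ± 0.58 (SE, n = 3 each; adjusted p = 0.339), so the peak was not called. The labels do not say what the replicate numbers mark. Same-numbered IL2 and PBS libraries deviated together in these same counts, which only hints at a pairing. With the number as a block over all libraries of this time, FP included, the log2 fold change was 2.16 ± 0.49 and the peak was called (adjusted p = 0.0266). Without PBS library 2 it was called as well, at 2.92 ± 0.60 (adjusted p = 0.0397). Over all 19 other settings the adjusted p ran from 0.0266 to 0.870. The deposited annotation places the peak in Hist1h2be; whether it acts on that gene was not tested.

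A stretch of 200 bases around the TTCNNNGAA element of this peak is shown, because the peak is the histone region called under some settings at 0.75 h, and 8 of the 71 regions hold that element (chr13:23593214-23593413, plus strand, the element in capitals). Of all peaks, 13.3% hold the element.
Hist1h2be intron: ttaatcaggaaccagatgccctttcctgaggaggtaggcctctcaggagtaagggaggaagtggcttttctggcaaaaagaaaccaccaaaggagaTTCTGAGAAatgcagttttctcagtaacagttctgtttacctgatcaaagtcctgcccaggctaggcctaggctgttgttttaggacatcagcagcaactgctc

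Of the more abundant peaks, the one at the 3′ end of Hist1h1b, which encodes the linker histone H1.5, had 23.7, 19.0 and 22.2 CPM in IL2 libraries, against 16.4, 14.0 and 9.65 CPM in PBS libraries. The groups did not overlap, and the log2 fold change was 0.70 ± 0.23 (adjusted p = 0.422). The promoter of Hist1h1a, another H1 gene, had 0.65 ± 0.31 (adjusted p = 0.882). Here and for each comparison with PBS below, except where all 126 peaks are named, the highest and lowest values are those among peaks with a mean of at least 1 on the log2 CPM scale. The 3 lowest were of overlapping peaks at Hist2h3c1, an H3 gene, from -0.51 to -0.50. None of these passed the test. At this time the summed level of 10 overlapping promoter peaks of Gata1, a transcription factor of the erythroid lineage named here after its values were seen, was 42.9 to 64.3 CPM in IL2 libraries and 17.1 to 32.3 CPM in PBS libraries, without overlap. The level of this single gene does not show a rise of erythroid genes as a set. Its part in the IL2 values of this time was not tested.

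**Figure D3:**
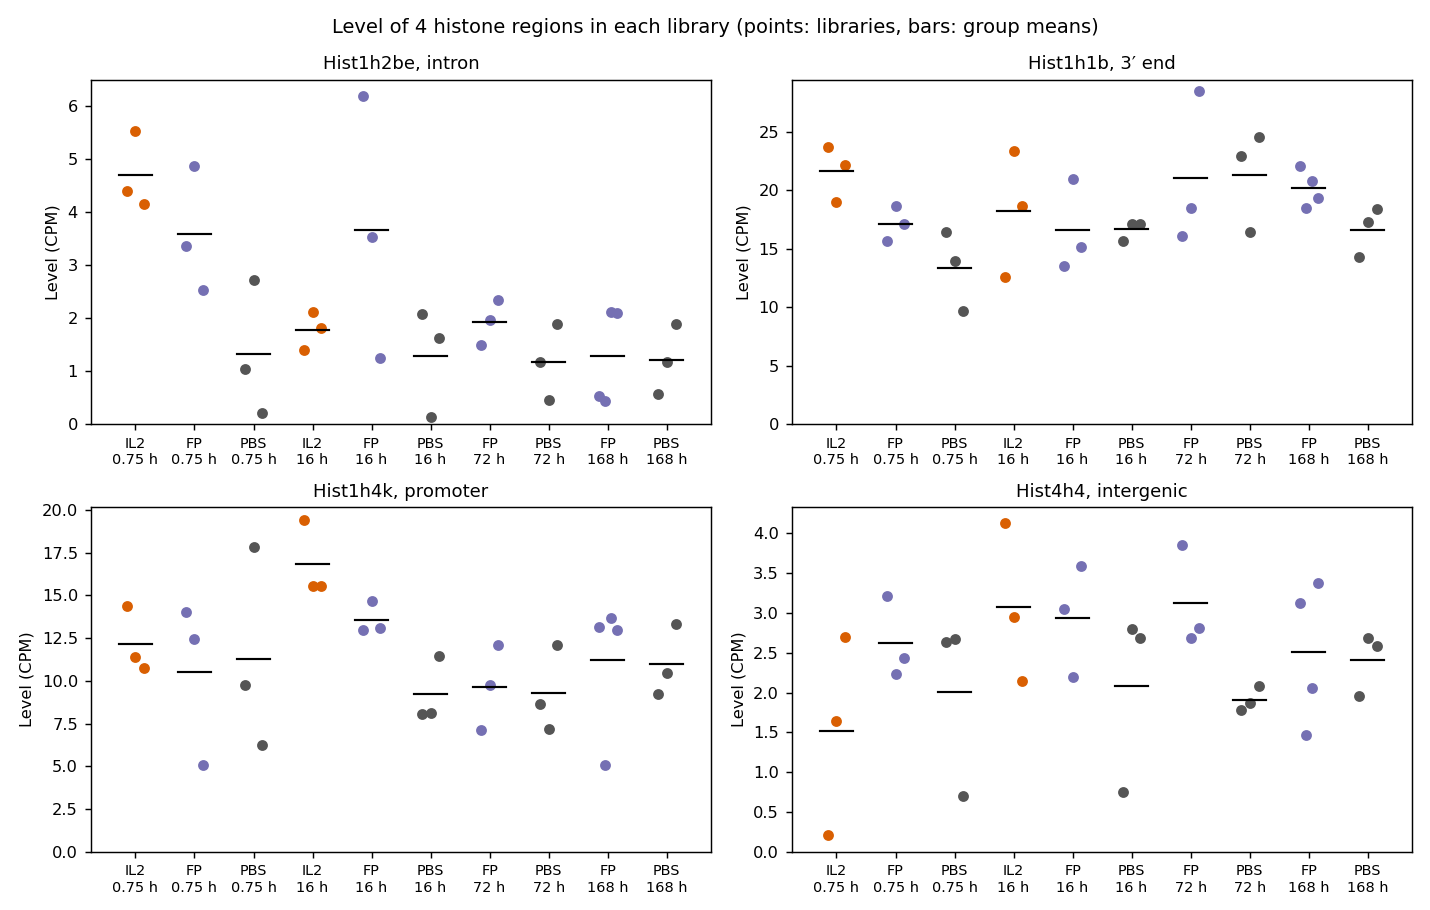
Level (vertical axes, CPM) of 4 histone regions in each library of the 10 groups (horizontal axes). Points are libraries and bars are group means; the Hist1h2be intronic peak is at 4.15 to 5.52 CPM in IL2 libraries at 0.75 h and at 0.199 to 2.72 CPM in PBS libraries, and the Hist1h4k promoter at 15.5 to 19.4 CPM in IL2 and 8.07 to 11.5 CPM in PBS libraries at 16 h.

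After FP at 0.75 h no histone peak passed the test either. There were 0 of 126 peaks called, against 2 of 100468 peaks in all (0.00199%), and DESeq2 called 0. An unadjusted p under 0.05 was found at 2 (1.59%, against 3.14% of all peaks), and 3 had libraries that did not overlap (2.38%, against 8.44%). The median log2 fold change was -0.02, and -0.00 over regions, against -0.00 for all promoters. With the library total in the fit it was 0.23, and without PBS library 2 it was 0.19. The intronic Hist1h2be peak had 3.36, 4.87 and 2.53 CPM in FP libraries, against the same 3 PBS libraries as above, which FP library 3 overlapped. Its log2 fold change was 1.46 ± 0.58 (adjusted p = 1.00). The Hist1h1a promoter had 12.5, 9.83 and 6.60 CPM in FP libraries, against 4.70, 7.36 and 4.52 CPM in PBS libraries, with overlap and a difference of 0.81 ± 0.31 on the log2 scale (adjusted p = 1.00). The IL2 and FP comparisons share their PBS libraries, so these values are not independent of those after IL2. The lowest value above that limit was at the Hist2h3b promoter, with 2.76, 1.51 and 1.13 CPM in FP libraries, against 3.21, 3.38 and 2.34 CPM in PBS libraries (-0.71 ± 0.45; adjusted p = 1.00).

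FP set directly against IL2 at 0.75 h gave 0 called histone peaks of 126, against 0% of all peaks, and 0 with DESeq2. An unadjusted p under 0.05 was found at 2 (1.59%, against 3.66% of all peaks), and the libraries did not overlap at 13 (10.3%, against 9.36%). Counted by regions, the libraries did not overlap at 4 of 71. The median log2 fold change was 0.05, against 0.01 for all promoters. The amounts injected differ between the 2 agents, 20 µg of FP and 5 µg of IL2.

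The second time asked whether an effect appeared by 16 h. After IL2 the median histone peak was slightly above PBS, with no single peak called. The median log2 fold change was 0.23 (0.30 over the 71 regions), against 0.07 for all promoters, and 97 of 126 values were above 0. The test called 0 of 126, where it called 0% of 100771 peaks, and DESeq2 called 0. At an unadjusted p under 0.05 there were 9 histone peaks (7.14%, against 3.63% of all peaks), all higher, where 1.6% of all peaks were higher, and 11 peaks had libraries that did not overlap (8.73%, against 8.98% of all peaks). The 3 IL2 libraries of 16 h had 28.3, 33.2 and 38.6 M counts, and the 3 PBS libraries had 23.6, 17.1 and 19.2 M counts. With the library total in the fit the median was -0.18, below 0. Leaving out 1 library at a time gave medians from 0.06 to 0.33. Without IL2 library c1, 18 histone peaks had an unadjusted p under 0.05, but the share of all peaks in that fit was not counted.

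The promoters of Hist1h4k and Hist1h3c had the 2 highest values. Hist1h4k, an H4 gene, had 19.4, 15.5 and 15.6 CPM in IL2 libraries, against 8.07, 8.11 and 11.5 CPM in PBS libraries. The groups did not overlap, and the log2 fold change was 0.87 ± 0.24 (adjusted p = 1.00). Hist1h3c, an H3 gene, had 4.29, 9.51 and 9.57 CPM in IL2 libraries, against 4.72, 2.66 and 4.16 CPM in PBS libraries, with 1 IL2 library inside the PBS range and a difference of 1.01 ± 0.35 on the log2 scale (adjusted p = 1.00). The promoter of Hist1h2af, an H2A gene, had 0.61 ± 0.39 (adjusted p = 1.00). The lowest values above the limit on level were of 3 overlapping peaks in an exon of Hist1h1d, an H1 gene, from -0.62 to -0.56. By type the median log2 fold change was 0.35 for H4 peaks, 0.33 for peaks naming H2A and H2B, 0.26 for H2A, 0.23 for H2B, 0.22 for H1 and -0.07 for H3. These medians are over peaks and not over regions. Those of H1, H2A and H3 weigh heavily the overlapping peaks at Hist1h1d, Hist2h2aa1, Hist2h2aa2, Hist2h3c1 and Hist2h3c2, which share reads. The H3 value therefore cannot be read as one of H3 genes in general.

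After FP at 16 h the median log2 fold change was -0.00 (0.14 over regions), against 0.03 for all promoters. The test called 0 of 126 histone peaks, against 115 of 100771 peaks in all (0.114%), and DESeq2 called 0. An unadjusted p under 0.05 was found at 5 (3.97%, against 5.31% of all peaks), and 10 had libraries that did not overlap (7.94%, against 12.3%). Hist1h4k had 13.0, 14.6 and 13.1 CPM in FP libraries, above all 3 PBS libraries given above, with a log2 fold change of 0.56 ± 0.24 (adjusted p = 0.875). Hist1h3c had 8.31, 7.12 and 5.31 CPM in FP libraries, also above the 3 PBS libraries (0.83 ± 0.35; adjusted p = 0.854). Both comparisons at 16 h use the same PBS libraries, so these values are not independent of those after IL2. The intronic Hist1h2be peak, with the highest value of all 126 peaks, had 6.20, 3.52 and 1.24 CPM in FP libraries, against 2.07, 0.140 and 1.62 CPM in PBS libraries, with FP library c3 inside the PBS range (1.46 ± 0.61; adjusted p = 0.848). In IL2 libraries of 16 h the same peak had 1.39, 2.11 and 1.82 CPM. The lowest value was at the 3′ end of Hist2h4, an H4 gene, with 1.34, 1.96 and 1.41 CPM in FP libraries, against 3.43, 1.89 and 2.94 CPM in PBS libraries (-0.81 ± 0.45; adjusted p = 0.962). With the library total in the fit the median became -0.21. At 16 h the summed myeloid marker level was 98.3 to 116 CPM in FP and 49.1 to 87.7 CPM in PBS libraries, without overlap. Most of it came from 10 promoter peaks of Cebpa alone, with 91.1 to 108 CPM in FP and 38.9 to 75.7 CPM in PBS libraries. The sum therefore does not show a rise of the myeloid list as a set, and its part in these values was not tested.

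FP against IL2 at 16 h had a median log2 fold change of -0.21 (-0.14 over regions), against -0.05 for all promoters, and 24 of 126 values were above 0. The test called 0 of 126, against 142 of 100771 peaks in all (0.141%), and DESeq2 called 0. An unadjusted p under 0.05 was found at 3 (2.38%, against 5.05% of all peaks), and 7 had libraries that did not overlap (5.56%, against 10.5%). With the library total in the fit the median was -0.01. The summed Treg and T cell marker level was 90.7 to 106 CPM in FP and 108 to 125 CPM in IL2 libraries of 16 h; its part was not tested.

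**Figure D4:**
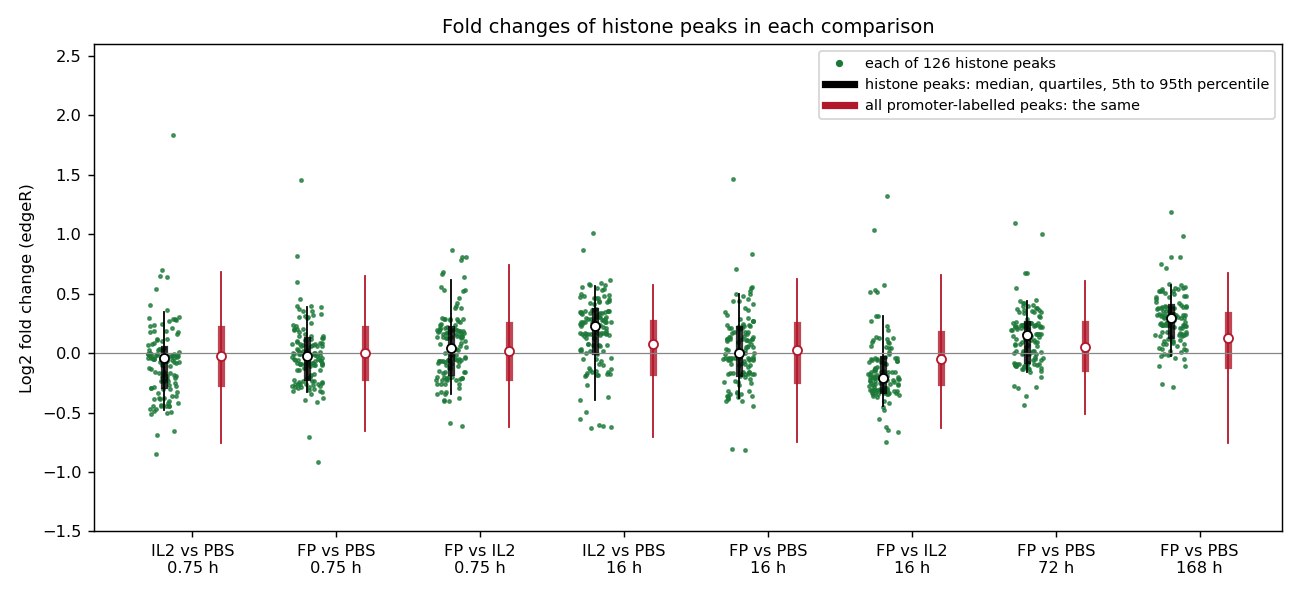
Log2 fold change (vertical axis) of each of the 126 histone peaks (green points) in the 8 comparisons (horizontal axis), with the median, quartiles and 5th to 95th percentile of the histone peaks (black) and of all promoter-labelled peaks (red). The histone medians lie between -0.21 and 0.30, and the points above 1.4 at 0.75 h and in FP against PBS at 16 h are the intronic Hist1h2be peak.

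The last 2 times followed FP alone. At 72 h 0 of 126 histone peaks were called, against 0% of 100480 peaks, and DESeq2 called 0. There was 1 peak with an unadjusted p under 0.05 (0.794%, against 5.21% of all peaks), and 1 whose libraries did not overlap (0.794%, against 11.7%). The median log2 fold change was 0.16 (0.06 over regions), against 0.05 for all promoters. The promoter of Hist1h3b, an H3 gene, had the highest value among peaks with a mean of at least 1 on the log2 CPM scale, with 1.93, 3.44 and 4.27 CPM in FP libraries, against 1.07, 2.05 and 1.58 CPM in PBS libraries. The libraries overlapped, and the log2 fold change was 1.00 ± 0.38 (adjusted p = 0.930). The lowest was at a small Hist1h2bc promoter peak (-0.44 ± 0.34; adjusted p = 0.935). Without PBS library 3, the deepest library, the median of the 126 peaks was 0.49. In that fit 36 histone peaks had an unadjusted p under 0.05 (none called), but the share of all peaks was not counted. Without PBS library 2 the median was -0.03, and with the library total in the fit it was 0.01. The summed Gata1 promoter level was 40.5 to 79.3 CPM in FP and 19.7 to 45.4 CPM in PBS libraries of 72 h, with overlap; its part was not tested.

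At 168 h 0 of 126 histone peaks were called, against 0% of 102580 peaks, and DESeq2 called 0. None had an unadjusted p under 0.05, where 4.54% of all peaks did, and 3 had libraries that did not overlap (2.38%, against 6.33%). The median log2 fold change was 0.30 (0.25 over regions), against 0.13 for all promoters, and 116 of 126 values were above 0. Among peaks with a mean of at least 1 on the log2 CPM scale an exonic peak of Hist1h2be led, with 5.93, 4.76, 10.1 and 7.29 CPM in FP libraries, against 1.96, 2.54 and 7.73 CPM in PBS libraries (0.72 ± 0.45; adjusted p = 0.899). The promoter of Hist1h2ab, an H2A gene, had 0.58 ± 0.36 (adjusted p = 0.899). The 3 lowest values among the same peaks lay from -0.11 to -0.04. They were at small promoter peaks of Hist1h1c and Hist1h4j and at an overlapping peak of Hist2h3c2. The more abundant promoter peaks of Hist1h1c and Hist1h4j had means of 42.3 and 15.1 CPM in FP libraries, against 34.8 and 13.1 CPM in PBS libraries. Over all 126 peaks the values ran from -0.29 to 1.19. Of the 7 libraries, 1 of 4 FP and 2 of 3 PBS libraries had under 14 M counts. With the library total in the fit the median was -0.03, and without FP library 2 and PBS library 1, the 2 shallowest libraries, it was 0.27. Without PBS library 4, the deepest PBS library, it was 0.48, and without PBS library 1 it was 0.14. Without PBS library 4, 35 histone peaks had an unadjusted p under 0.05, and without FP library 2, 10 had, with none called. The shares of all peaks in these fits were not counted.

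A change of the effects with time was tested in a single fit of all 31 libraries. In each of the 4 differences, IL2 and FP at 16 h minus 0.75 h, FP at 72 h minus 16 h and FP at 168 h minus 72 h, 0 of 126 histone peaks were called by edgeR or DESeq2. Of 104520 peaks in all, edgeR called 43 (0.0411%), 0 (0%), 1 (0.000957%) and 0 (0%) in that order. For IL2 at 16 h minus 0.75 h there was 1 histone peak with an unadjusted p under 0.05 (0.794%, against 5.26% of all peaks). The FP differences had 0, against 3.52%, 2.98% and 1.46% of all peaks. The median difference for the IL2 effect was 0.28 (log2 scale), against 0.10 for all promoters, and it uses the libraries behind the 16 h value above. For the intronic Hist1h2be peak the IL2 effect was lower at 16 h by 1.40 ± 0.97 on the log2 scale (adjusted p = 1.00).

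The precision of these results was better than for peaks at large. The median SE of a histone log2 fold change was 0.30 at 0.75 h, 0.28 at 16 h and 0.32 at 168 h, against 0.49, 0.48 and 0.47 for all peaks. The 95% interval lay wholly within a 2-fold change in either direction (log2 values of -1 to 1) for 81 of 126 histone peaks after IL2 and 90 after FP at 0.75 h. These counts were 96 and 100 at 16 h, 93 at 72 h and 68 at 168 h. Among all peaks that share was 25.4% to 39.2% in these comparisons with PBS. For the remaining histone peaks the interval reached past a 2-fold change, which could not be told from none at this spread. In bulk nuclei a change in a part of the cells and a smaller change in all of them cannot be told apart.

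The smaller clusters gave values of the same kind. Among Hist3 genes, Hist3h2ba, an H2B gene, had 15.9, 20.7 and 16.1 CPM in IL2 and 13.9, 17.8 and 11.2 CPM in FP libraries at 0.75 h, against 17.8, 16.5 and 11.5 CPM in PBS libraries, and the groups overlapped. The peak at Hist3h2a and the pseudogene Hist3h2bb-ps had 12.2 to 38.7 CPM over all libraries. At Hist4h4 the promoter had 12.2 to 28.5 CPM, and an intergenic peak 10697 bases from its start had 0.216 to 4.13 CPM. This intergenic peak had 3.86, 2.69 and 2.81 CPM in FP libraries at 72 h, against 1.78, 1.87 and 2.09 CPM in PBS libraries, groups that did not overlap (0.68 ± 0.30; adjusted p = 0.930). Its log2 fold change after FP was 0.40 ± 0.64 at 0.75 h (adjusted p = 1.00) and 0.52 ± 0.47 at 16 h (adjusted p = 0.993). Per kb, and each represented by its widest peak, the Hist2 regions were highest at Hist2h2aa1 (22.7 CPM per kb), followed by Hist2h2be/Hist2h2ac (19.1), Hist2h2ab and Hist2h2bb (16.2 each), a small promoter peak of Hist2h2be (14.4), Hist2h3b (13.6) and Hist2h4 (12.1). Hist2h2aa2/Hist2h3c2 (8.93) and the 3′ end of Hist2h4 (6.67) were lowest. At Hist2h2aa1 and Hist2h2aa2/Hist2h3c2, 62.3% and 85.6% of the stretches of 75 bases recur elsewhere in the genome. The levels of both are therefore uncertain, and so are their places in this order.

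Genes around the clustered histones were examined as lists. Among 11 replication-independent histone genes, which supply variants outside S phase, 9 had peaks (19 tested at 0.75 h). Of these 1 was called after IL2 at 0.75 h, where 0.497% of all peaks were called. It was higher, at chr13:56151357-56152165 in an intergenic stretch assigned to H2afy, which encodes macroH2A. It had 13.0, 13.0 and 13.5 CPM in IL2 libraries, against 6.06, 4.19 and 2.78 CPM in PBS libraries, groups that did not overlap, with a log2 fold change of 1.60 ± 0.32 (adjusted p = 0.0260). Without IL2 library 1, 2 or 3 or PBS library 2 or 3, or with the library total in the fit, it was not called (adjusted p of 0.0692 to 0.171), and over all 19 other settings the adjusted p ran from 4.06e-04 to 0.171. In FP libraries of that time it had 6.00, 11.2 and 8.36 CPM (0.98 ± 0.32; adjusted p = 1.00), and at 16 h FP against PBS gave 1.34 ± 0.31 (adjusted p = 0.113). The H2afy peak is no member of the histone clusters, and the difference between it and them was not tested.

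Of 15 factors of histone gene transcription and mRNA processing, among them Npat, Slbp, Hinfp and Casp8ap2, all had peaks and 0 of 43 peaks were called in any comparison. The largest log2 fold change was 2.43 ± 0.99 at a Pou2f1 peak, FP against PBS at 16 h (adjusted p = 0.811). Of 13 histone chaperones, 0 of 25 peaks were called in any comparison. The largest log2 fold change there was 2.68 ± 1.40 at a Chaf1b peak, FP against IL2 at 0.75 h (adjusted p = 1.00). Of 18 DNA replication genes, among them Pcna and Mcm2 to Mcm7, 0 of 45 or 46 peaks were called in any comparison. The largest log2 fold change was -3.06 ± 1.06 at an Mcm3 peak, IL2 against PBS at 16 h (adjusted p = 1.00). DNA replication promoters had median log2 fold changes of -0.02 at 0.75 h and 0.11 at 16 h after IL2, beside -0.03 and 0.07 for all promoters. After FP they had 0.06 at 0.75 h and at 16 h, 0.02 at 72 h and 0.12 at 168 h.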

How the data were processed

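The deposited table gives whole-number counts of reads per peak for 31 libraries, per the file headers, with a gene and class annotation for each peak. Reads were mapped to GRCm38 (mm10) with BWA and peaks were called by the authors with MACS2 2.1.2, per the submitters' processing notes, and kept by their irreproducible discovery rate between pseudo-replicates, per the series design text. Not given in the sources used here are the read counter, the duplicate filter, any shift of reads for the transposase and how the common peak set was made. Per the labels, 2 technical replicates were processed for a sample, and the table has 1 column for each. The labels' treatment protocol names 0.75 h for every sample, and times were taken from the sample labels. Each time has its own date in the labels, so that time and date cannot be told apart.

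Counts were fitted as deposited with edgeR 4.0.16 (R 4.3.3), in a quasi-likelihood model per time with all groups of that time, TMM scaling and filterByExpr (minimum count 10, minimum total 15). Adjustment was by Benjamini-Hochberg across every peak in the fit, and 0.05 was the threshold. Levels in the text are scaled over all 31 libraries and fold changes over the libraries of a time, so the scales differ slightly. Differences between times came from 1 fit of all libraries. A single peak at chr1:24611561-24615794 held 24.0% of all counts, and 14.98% to 32.2% by library. A fit without it was among the alternatives, as were DESeq2 1.42.0, other scalings and no filter. Further alternatives were library total as a covariate, the replicate number as a block and each library left out in turn. The widest peak stood for each merged region, an alternative chosen after seeing the data. The scripts were tested on simulated data. No column was left unmapped. Of the cell type marker lists, 2 are not reported here.

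Same-numbered IL2 and PBS libraries at 0.75 h deviated together (correlations of 0.15, 0.34 and 0.12 over peaks, each over 0.1). This is a hint of pairing from the data, and the labels do not say what a number marks. The main fits did not pair libraries, and the number entered only as a block in alternative fits. The members and lists were chosen with earlier results of these data known. Named peaks were the 10 most abundant, the 3 highest and 3 lowest log2 fold changes against PBS with a mean log2 CPM of at least 1, the most abundant promoter of each histone type, and the peaks of Hist2, Hist3 and Hist4 genes.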

Additional observations from a re-analysis of the deposited data

Results flagged for a closer look

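In the FP group at 168 h, library 2 lay far below the other 3 in the summed level of the 71 histone regions. It had 671 CPM on the TMM scale, where the others had 1125, 1139 and 1157 CPM, and 629.9 CPM of the plain library total, where the others had 1179, 1272 and 1292 CPM. Its gap to the nearest library exceeded the 95% critical value of Dixon's test for 4 samples, which chance exceeds in about 1 of 20 groups. On the plain library total the margin over that value was narrow. Single peaks exceeded the critical value at 20 of the 126 histone peaks in this group. Library 2 was the farthest, and the lowest, at 18 of them. The share of all peaks beyond the critical value was not counted, and many histone peaks share reads. The count therefore cannot be read as particular to histone peaks. Library 2 held 12.3 M counts and the other FP libraries of 168 h held 32.8 to 37.7 M counts.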

How the results depend on the processing

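In 163 alternative fits of the 12 comparisons, 2 called a histone peak, the intronic Hist1h2be peak after IL2 at 0.75 h. The count of called histone peaks was 1 with the replicate block, a pairing that only these counts hint at. It was 0 to 1 with a library left out (1 without PBS library 2). The replicate block changed no other histone call. Same-numbered FP and PBS libraries of 0.75 h had correlations of 0.010, 0.37 and 0.27 over peaks. For FP and IL2 these were 0.022, 0.27 and 0.14. In both only the libraries numbered 1 were under 0.1, so the hint is not particular to IL2 and PBS. At 72 h and 168 h the samples share a number, and at 16 h they share none. With the library total as a covariate, the median log2 fold change of the histone peaks was 0.23 for FP at 0.75 h, -0.18 for IL2 at 16 h, -0.21 for FP at 16 h and -0.0080 for FP against IL2 at 16 h, and it was -0.03 for FP at 168 h. That term changed the sign of the medians of FP at 0.75 h, IL2 at 16 h and FP at 168 h, and the cause was not tested. With a library left out the FP median at 0.75 h ran from -0.11 to 0.19 and the IL2 median from -0.21 to 0.10. Over the alternatives the histone peaks with an unadjusted p under 0.05 numbered 0 to 36 at 72 h and 0 to 35 at 168 h. At 16 h they numbered 2 to 18 for IL2 and 1 to 11 for FP. The shares of all peaks in those fits were not counted, and many histone peaks share reads. These numbers therefore cannot be read as particular to histone peaks. Without TMM the mean histone sum was 1008 CPM in FP at 16 h and 977 CPM in IL2 at 0.75 h.

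Some log2 fold changes near 0 changed sign. With a library left out, after FP at 0.75 h the Hist4h4 intergenic peak ran from -0.0053 to 0.67 and the Hist1h2be exon peak from -0.69 to 0.061. At 168 h the small Hist1h1c peak ran from -0.35 to 0.17, the small Hist1h4j peak from -0.18 to 0.10 and the Hist2h3c2 peak from -0.17 to 0.17. Without both FP 2 and PBS 1, Hist1h4j had 0.13 and Hist2h3c2 had 0.27, and without TMM Hist2h3c2 had 0.022.

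Counts over all peaks moved more. DESeq2 called 1116 peaks for IL2 and 222 for FP at 0.75 h, 6 for FP against IL2, 2, 489 and 492 for the same order at 16 h, 141 at 72 h and 27 at 168 h. Over all settings the edgeR and DESeq2 counts ran from 187 to 1116 for IL2 and 0 to 222 for FP at 0.75 h, and from 37 to 489 for FP at 16 h. The groups of 3 or 4 libraries and the repeated sequence of many histone genes limit what can be detected at single peaks.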
